A study of Mus musculus with 22 samples.

Results

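Disallowed genes are a small set of genes that most tissues use and that mature insulin-producing beta cells keep low. The 10 described here are Ldha, Slc16a1, Hk1, Oat, Mgst1, Lmo4, Acot7, Zfp36l1, Itih5 and Cat. They were taken by symbol from the table of islet expression, where each has 1 Ensembl identifier, and they are 10 of its 57010 rows. A beta cell releases insulin when glucose is burned in its mitochondria, so the enzymes and carriers that would divert pyruvate to lactate, or let lactate and pyruvate in from the blood, are held down. Low hexokinase I has a similar logic, because that enzyme works at low glucose and would blunt the dependence of glycolysis on the glucose level. The other genes of the set serve peroxide and glutathione chemistry, amino acid and fatty acyl metabolism, RNA decay and the extracellular matrix, and their role in keeping beta cells silent is less well defined.

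RNA was measured in isolated pancreatic islets of 22 male mice aged 5.5 weeks, with 1 mouse per library. The mice were either wild type (WT) for MafA or heterozygous (Het) for its S64F allele, which changes the MAFA transcription factor of beta cells. There were 5 WT and 6 Het mice on a background the labels call C57, and 5 WT and 6 Het mice on one they call Mixed, whose strains are not given in the sources used here. How the allele was made, and in which cells it is expressed, is also not given there. Values are in TPM, a unit that scales read counts by transcript length and library total, so levels of different genes can be set side by side. They keep no sequencing depth, so counting error cannot be computed. Differences below are on the log2(TPM + 1) scale, which understates the change of low genes, and a gene is said to rise or fall only where limma's adjusted p over 16756 genes is under 0.05.

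Mafa itself averaged 441 ± 87.6 TPM (SD) over the 5 WT and 117 ± 23.2 over the 6 Het mice of the C57 background, and 598 ± 143 against 152 ± 37.1 TPM on the Mixed background, with no overlap on either background. Between 14812 and 16133 genes reached 1 TPM in a library. Summed beta cell markers were at 250695 TPM or more in every library. In Mixed they did not overlap between genotypes, at 401624 to 479328 TPM in WT against 250695 to 342701 TPM in Het. In C57 they overlapped, at 370161 to 450204 TPM in WT and 323802 to 379238 TPM in Het. Markers of other cell types were detected as well, ductal markers for one at 112 to 170 TPM in Mixed WT, with 0 of the markers that passed the filter at 0 throughout a group. In RNA of whole islets, fewer cells of a type and less RNA per cell cannot be told apart. A few libraries stood apart within their groups. C57 WT mouse 5 was the highest of its group for 9 of the 10 genes and also had the highest endothelial (898 TPM, summed) and mesenchymal (262 TPM) marker levels of the C57 WT mice. Mixed WT mouse 2 was the highest of its group for 8 genes. Mixed Het mouse 3 was the lowest of its group for 7 genes and had the lowest mesenchymal sum there, at 125 TPM.

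The windows before the transcription start of 3 of the genes are shown here because Ldha and Slc16a1 are the best-known pair of disallowed genes and Oat is the member with the clearest genotype difference. Each runs 5′ to 3′ over 250 bases on the strand of the gene, from RefSeq on GRCm38.p6, and lies at chr7:46845554-46845803 on the + strand (Ldha, the first of its listed starts), chr3:104638414-104638663 on the + strand (Slc16a1) and chr7:132576399-132576648 on the - strand (Oat). Capitals mark matches, on either strand, to ACGTG, the core of the hypoxia response element, and CACGTG, the E-box that contains that core.
Ldha: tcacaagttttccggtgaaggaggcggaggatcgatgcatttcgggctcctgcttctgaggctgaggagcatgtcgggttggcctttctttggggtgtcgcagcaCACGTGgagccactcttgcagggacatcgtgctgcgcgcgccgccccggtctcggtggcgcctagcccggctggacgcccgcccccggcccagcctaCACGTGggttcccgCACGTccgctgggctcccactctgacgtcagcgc
Slc16a1: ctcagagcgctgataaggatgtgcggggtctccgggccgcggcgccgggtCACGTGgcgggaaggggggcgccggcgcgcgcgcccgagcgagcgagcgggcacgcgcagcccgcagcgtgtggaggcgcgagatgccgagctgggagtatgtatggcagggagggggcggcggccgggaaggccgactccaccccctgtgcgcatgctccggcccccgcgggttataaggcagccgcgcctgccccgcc
Oat: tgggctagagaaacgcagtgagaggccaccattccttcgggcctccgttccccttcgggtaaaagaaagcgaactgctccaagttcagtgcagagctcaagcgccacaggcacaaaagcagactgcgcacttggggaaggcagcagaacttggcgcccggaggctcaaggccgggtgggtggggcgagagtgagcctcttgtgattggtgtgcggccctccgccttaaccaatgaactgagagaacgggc
The Ldha window was 67.2% G and C, the Slc16a1 window 76.4% and the Oat window 60.0%. ACGTG occurs in 16.6% of 32851 promoter windows of this length and CACGTG in 6.02%. The core TGCTGAC that MAF proteins recognise, searched on both strands and able to overlap ACGTG by its last letters, occurs in 3.81% of windows and was not among the letters of these 3. A match is only a description of the letters, and its absence says nothing about a factor.

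Levels of the 10 genes were low to moderate for islet RNA. Over all 22 mice the mean ran from 0.786 TPM for Slc16a1, above 2.27% of the genes tested, to 23.7 TPM for Oat, above 74.0% of them. In C57 WT islets Zfp36l1 (13.5 ± 7.03 TPM) and Oat (12.7 ± 2.38 TPM) were the most abundant and differed by less than their spread, followed by Ldha, Cat, Acot7, Hk1, Lmo4, Mgst1, Itih5 and Slc16a1. In the other 3 groups Oat was first. In Mixed Het islets it stood at 38.5 ± 8.97 TPM, ahead of Zfp36l1 at 21.3 ± 7.68 and Acot7 at 13.4 ± 4.76 TPM. All 10 passed the filter of 1 TPM in at least 5 libraries. Slc16a1 did so with 5 libraries, of which 4 were Mixed Het and 1 was Mixed WT, so it was kept through the group where it was highest. Itih5 passed with 9 libraries, of which 5 were Mixed Het, 3 C57 Het, 1 C57 WT and 0 Mixed WT, so in the Mixed comparison it was kept through the Het mice alone. The remaining 8 genes reached 1 TPM in every library.

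**Figure D1:**
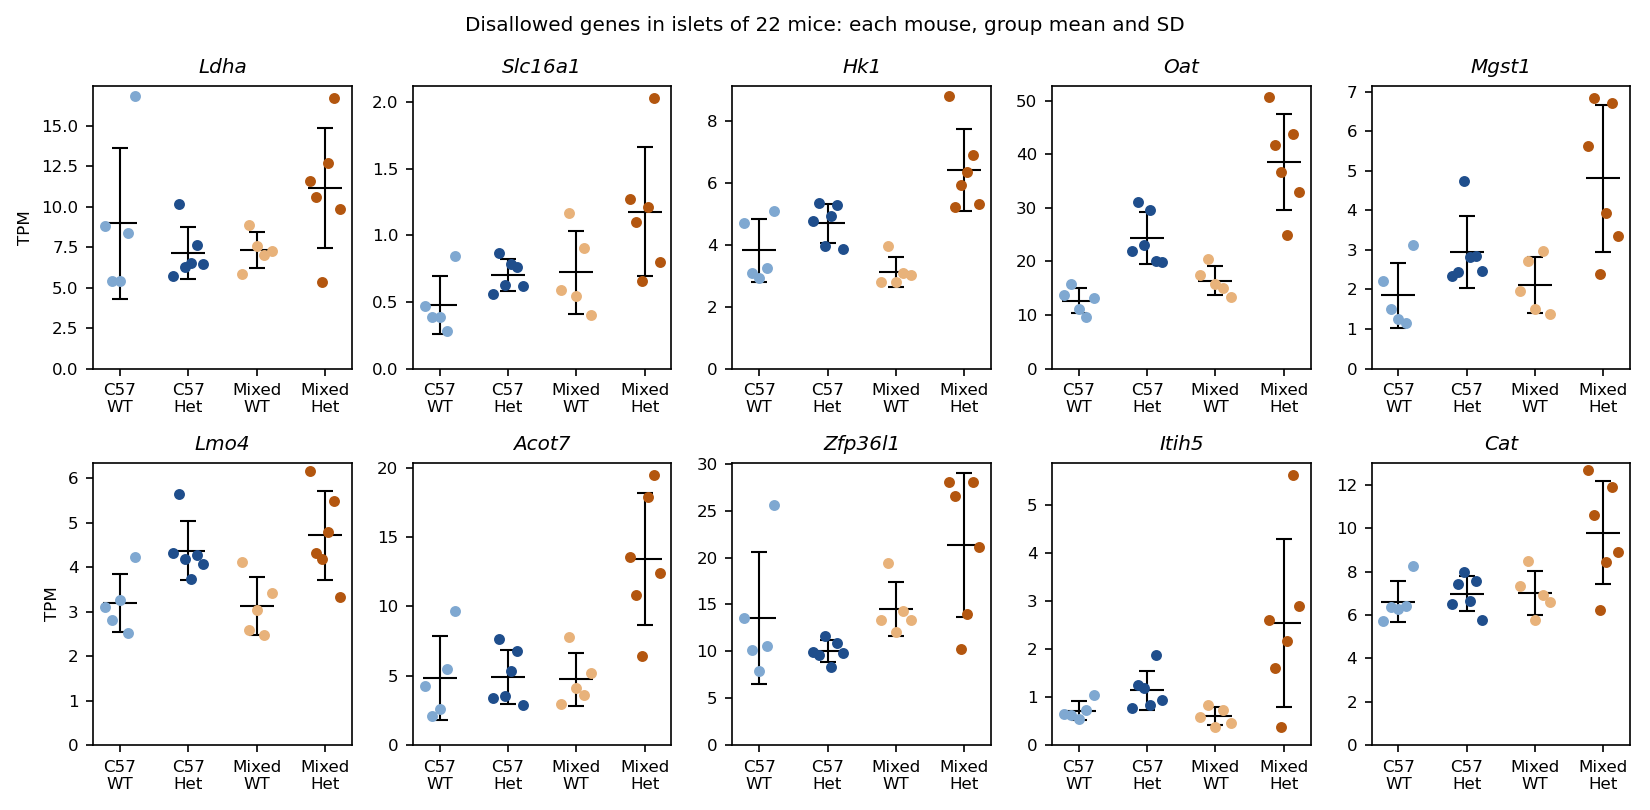
Level in TPM (vertical axis, linear, starting at 0) of each of the 10 genes in every mouse (points) of the 4 genotype and background groups, with the group mean and SD as bars. The Het points of Oat lie above all WT points on both backgrounds, from 19.8 TPM in C57 and 25.0 TPM in Mixed, while those of Ldha and Zfp36l1 overlap the WT points.

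On the C57 background Oat and Lmo4 rose in Het islets. These are 2 of the 10 genes, where 38.0% of all genes tested passed and 26.4% passed as higher, so the share is not above the background. The other 8 did not pass the test, with 6 of these differences above 0 and 2 below. On the Mixed background 7 of the 10 rose, namely Oat, Hk1, Mgst1, Cat, Acot7, Lmo4 and Itih5, and none fell, where 44.1% of all genes passed and 30.7% passed as higher. Itih5 had to be higher in Mixed Het islets to pass the filter and carries no weight in that count, which is 6 among the 8 genes at 1 TPM or more in every library. The median difference of the 10 genes was 0.24 in C57, beside 0.083 over all genes tested, and 0.66 in Mixed, beside 0.10. The Mixed median still includes Itih5 and Slc16a1, which the filter kept through the Mixed Het mice. The groups were fully separated, with every Het mouse above every WT mouse, for 1 gene in C57 (15.9% of all genes) and for 2 genes in Mixed (17.9% of all genes). With median-of-ratios scaling the median of all genes moved to -0.014 in C57 and -0.010 in Mixed, and under it only Oat passed in C57 and Cat was lost from the genes that passed in Mixed.

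Lactate dehydrogenase A (Ldha, ENSMUSG00000063229) converts pyruvate to lactate. It was at 8.82, 5.4, 5.43, 8.35 and 16.8 TPM in the 5 C57 WT mice, and between 5.74 and 10.1 TPM, with a median of 6.49, in the 6 C57 Het mice. In Mixed WT mice it was at 5.82, 8.89, 7.60, 7 and 7.28 TPM, and in Mixed Het mice between 5.37 and 16.7 TPM with a median of 11.1. The C57 WT range was set by mouse 5, and 5 of 6 Mixed Het mice lay above every Mixed WT mouse while Mixed Het mouse 3 lay below all of them. Het minus WT in C57 came to -0.21 (SE 0.24, limma adjusted p = 0.517), and the Mixed difference of 0.49 (SE 0.24, adjusted p = 0.0948) did not pass either. The sign in C57 and the call in Mixed turn on 1 library each. Without C57 WT mouse 5 the C57 difference was 0.031 and still did not pass (adjusted p = 0.928). Without Mixed Het mouse 3 the Mixed difference was 0.67 and passed (adjusted p = 0.0163). The Mixed difference, unchanged at 0.49, also passed without C57 WT mouse 5 (adjusted p = 0.0434), which adds to the spread that all groups share.

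Slc16a1 (ENSMUSG00000032902) encodes the monocarboxylate transporter MCT1, which carries lactate and pyruvate across the plasma membrane. Its levels were 0.473, 0.389, 0.384, 0.280 and 0.845 TPM in C57 WT and 0.558 to 0.872 TPM, median 0.695, in C57 Het islets. In the Mixed groups they were 0.592, 1.17, 0.545, 0.903 and 0.399 TPM in WT and 0.656 to 2.03 TPM, median 1.16, in Het. The Het and WT mice overlapped on both backgrounds, although the 3 highest Mixed Het mice stood above every Mixed WT mouse. In C57 the difference was 0.22 (SE 0.14, adjusted p = 0.243), and in Mixed it was 0.33 (SE 0.14, adjusted p = 0.0674). It passed in Mixed when Mixed WT mouse 2 (0.42), Mixed Het mouse 3 (adjusted p = 0.027) or Mixed Het mouse 6 (0.38) was left out. The filter had kept Slc16a1 with 4 Mixed Het libraries and 1 Mixed WT library, so its Mixed differences and calls are given as a description. These are differences near 1 TPM, where the added 1 in the log compresses change.

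Around these genes, the list of lactate and pyruvate handling genes had 12 of 22 tested members that rose and 2 that fell in C57 Het islets, and 10 that rose and 2 that fell in Mixed Het islets. Over all genes tested 26.4% rose in C57 and 30.7% in Mixed. Basigin (Bsg), the chaperone that brings MCT1 to the membrane, averaged 519 ± 36.6 TPM in WT against 648 ± 37.5 TPM in Het mice of C57, and 461 ± 42.8 against 772 ± 28.7 TPM in Mixed. In C57 it rose by 0.32 (adjusted p = 0.000814), in Mixed by 0.75 (adjusted p = 1.96e-08), and the difference between those was itself past the threshold (interaction 0.43, adjusted p = 0.00999). Slc16a7, the related carrier MCT2, rose by 0.48 and 0.64 from a low level, 0.530 ± 0.148 to 1.13 ± 0.141 TPM in C57. No WT library reached 1 TPM of Slc16a7 (highest 0.764 TPM in C57 and 0.932 TPM in Mixed), so it passed the filter through Het libraries alone and its rise is given as a description. Slc16a3, the carrier MCT4, failed the filter. Lactate dehydrogenase B (Ldhb), the heart-type subunit, went the other way from these, from 45.9 ± 9.36 to 32.8 ± 4.87 TPM in C57 and from 36.6 ± 9.71 to 25.4 ± 4.94 TPM in Mixed, a fall of -0.46 (adjusted p = 0.0187) and -0.50 (adjusted p = 0.0108).

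At the branch of pyruvate into the mitochondria, Pdk4, a kinase that switches off pyruvate dehydrogenase, averaged 22.2 ± 10.5 TPM in WT against 52.1 ± 12.7 TPM in Het mice of C57, and 11.8 ± 5.38 against 57 ± 13.9 TPM in Mixed. It rose by 1.36 (adjusted p = 0.00314) and 2.25 (adjusted p = 1.54e-05), with every Het mouse above every WT mouse. Pyruvate carboxylase (Pcx), which refills the citric acid cycle, fell by 0.43 in C57 and 1.26 in Mixed, and its fall differed between backgrounds (interaction -0.83, adjusted p = 0.00301). Embigin (Emb), another partner of the monocarboxylate carriers, rose by 0.79 in C57, while in Mixed it differed by 0.16 (adjusted p = 0.161), and this difference passed as an interaction of -0.63 (adjusted p = 0.00642).

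Hexokinase I (Hk1, ENSMUSG00000037012) phosphorylates glucose with high affinity. It was at 4.72, 3.10, 2.92, 3.27 and 5.10 TPM in C57 WT, and between 3.87 and 5.35 TPM, median 4.85, in C57 Het mice. In Mixed mice it was at 2.80, 3.95, 2.80, 3.08 and 3.01 TPM in WT and between 5.22 and 8.84 TPM, median 6.15, in Het. The Mixed Het mice all lay above the Mixed WT mice, whereas the C57 groups overlapped. Hk1 rose in Mixed, where the Het mean was 2.06 times the WT mean (0.84, SE 0.13, limma adjusted p = 3.67e-05). In C57 the difference was 0.26 (SE 0.13, adjusted p = 0.134). Hk2, Hk3 and Hkdc1 failed the filter.

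Of the 15 hexokinase and glycolysis genes tested, 4 rose and none fell in C57 Het islets, and 11 rose and 1 fell in Mixed Het islets. Over all genes 26.4% rose in C57, so the C57 count is near the background, and 30.7% rose in Mixed. Gpi1, Tpi1, Gapdh and Eno1 differed between backgrounds by the interaction test. Enolase 1 (Eno1), for one, rose by 0.90 in Mixed and differed by 0.24 (adjusted p = 0.129) in C57.

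Ornithine aminotransferase (Oat, ENSMUSG00000030934) is a mitochondrial enzyme that links ornithine to glutamate and proline. It was at 13.7, 15.8, 11.1, 9.63 and 13.1 TPM in C57 WT mice and between 19.8 and 31.1 TPM, median 22.6, in C57 Het mice. On the Mixed background its levels were 17.4, 20.4, 15.7, 15.1 and 13.3 TPM in WT and between 25.0 and 50.7 TPM, median 39.2, in Het. It was the only one of the 10 genes with all 6 Het mice above all 5 WT mice on both backgrounds. In C57 the Het mean was 1.92 times the WT mean (0.89, SE 0.16, limma adjusted p = 0.000244), and in Mixed 2.35 times (1.16, SE 0.16, adjusted p = 6.14e-06). The 2 differences did not differ beyond their error (interaction 0.28, adjusted p = 0.454, 95% interval -0.19 to 0.75).

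Of 12 tested genes of ornithine, proline and polyamine metabolism, Oat included, 6 rose and 1 fell on each background, beside 26.4% of all genes that rose in C57 and 30.7% in Mixed. Arginase 1 (Arg1), which makes ornithine from arginine, was at 32.5 ± 11.8 and 56.0 ± 7.28 TPM in C57 WT and Het, and at 22.8 ± 6.95 and 64.1 ± 17.3 TPM in Mixed, with all Het mice above all WT mice. It rose by 0.84 (adjusted p = 0.0053) and 1.45 (adjusted p = 2.27e-05). Pycr1 and Aldh18a1, enzymes of proline synthesis, also rose on both backgrounds, Pycr1 by 0.51 and 0.66 and Aldh18a1 by 0.54 and 0.42. Glutamine synthetase (Glul) was the gene that fell in Mixed, by 0.90 (adjusted p = 9.17e-05).

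Mgst1 (ENSMUSG00000008540) encodes microsomal glutathione S-transferase 1, a membrane enzyme that reduces lipid peroxides with glutathione. It was at 2.21, 1.5, 1.25, 1.14 and 3.13 TPM in C57 WT and between 2.35 and 4.74 TPM, median 2.65, in C57 Het mice. Among Mixed mice the values were 1.95, 2.72, 1.51, 2.98 and 1.38 TPM in WT and between 2.39 and 6.85 TPM, median 4.78, in Het. All Mixed Het mice but mouse 3 lay above the Mixed WT mice. Mgst1 rose in Mixed by 0.87 (SE 0.22, limma adjusted p = 0.00324), and in C57 the difference was 0.49 (SE 0.22, adjusted p = 0.0847). Without C57 WT mouse 5 the C57 difference was 0.63 and passed.

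Catalase (Cat, ENSMUSG00000027187) breaks down hydrogen peroxide in peroxisomes and is unusually scarce in beta cells. It was at 5.73, 6.37, 6.29, 6.39 and 8.24 TPM in C57 WT mice and between 5.76 and 8 TPM, median 7.03, in C57 Het mice. In Mixed mice it was at 7.34, 8.51, 5.76, 6.94 and 6.58 TPM in WT and between 6.24 and 12.7 TPM, median 9.75, in Het. The 4 highest Mixed Het mice stood above every Mixed WT mouse. Cat rose in Mixed by 0.41 (SE 0.14, limma adjusted p = 0.0184), where the Het mean was 1.40 times the WT mean, and it did not pass without Mixed WT mouse 3 (0.35, adjusted p = 0.0586), with quantile normalization (0.32, adjusted p = 0.053) or in a fit of the Mixed mice alone (0.41, adjusted p = 0.0525). In C57 the difference was 0.071 (SE 0.14, adjusted p = 0.712), and it turned to -0.033 with median-of-ratios scaling.

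The peroxide and glutathione defence list had 14 of 27 tested members that rose and none that fell in C57, and 17 that rose and 1 that fell in Mixed, beside 26.4% and 30.7% of all genes that rose. Gpx3, a secreted glutathione peroxidase, rose from 645 ± 201 to 1270.4 ± 308 TPM in C57 and from 410 ± 87.4 to 1658 ± 313 TPM in Mixed, by 0.998 and 2.01, and the difference passed as an interaction of 1.02 (adjusted p = 0.0231). Mgst3, the relative of Mgst1, rose by 0.53 in Mixed, while in C57 it did not pass (interaction 0.54, adjusted p = 0.00474). Prdx4, a peroxiredoxin of the endoplasmic reticulum, rose by 0.44 and 1.12. Mgst2 failed the filter.

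Acot7 (ENSMUSG00000028937) encodes a cytosolic thioesterase that splits fatty acyl-CoA. It was at 4.26, 2.07, 2.61, 5.51 and 9.68 TPM in C57 WT and between 2.90 and 7.62 TPM, median 4.42, in C57 Het mice. On the Mixed background its levels were 2.94, 7.77, 4.14, 3.58 and 5.23 TPM in WT and between 6.44 and 19.5 TPM, median 13.0, in Het. The C57 groups overlapped throughout, and 5 of 6 Mixed Het mice lay above all Mixed WT mice. In Mixed the Het mean was 2.84 times the WT mean, a rise of 1.32 (SE 0.30, limma adjusted p = 0.00148), and in C57 it was 1.02 times the WT mean (0.10, SE 0.30, adjusted p = 0.818). Of the 9 thioesterase genes tested, 3 rose and none fell in C57, and 6 rose and 1, Acot8, fell in Mixed. The C57 count is near the 26.4% of all genes that rose there, and 30.7% rose in Mixed. Acot9, a mitochondrial member, rose by 0.43 and 1.07 (interaction 0.64, adjusted p = 0.0231), and Acot1 by 0.54 and 0.76. No C57 WT library reached 1 TPM of Acot1 (highest 0.991 TPM). Acot3, Acot5 and Acot12 failed the filter.

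Lmo4 (ENSMUSG00000028266) encodes a protein of LIM domains without DNA binding that competes for the adaptor LDB1. It was at 3.11, 2.82, 3.25, 2.52 and 4.24 TPM in C57 WT and between 3.72 and 5.65 TPM, median 4.22, in C57 Het mice. Among Mixed mice the values were 4.11, 2.59, 3.04, 2.48 and 3.41 TPM in WT and between 3.33 and 6.17 TPM, median 4.55, in Het. Groups overlapped on both backgrounds, with 3 of 6 C57 Het and 5 of 6 Mixed Het mice above every WT mouse. Lmo4 rose in C57 by 0.36 (SE 0.13, limma adjusted p = 0.0349) and in Mixed by 0.47 (SE 0.13, adjusted p = 0.00717). The C57 call was lost on leaving out C57 WT mouse 1, 2 or 4 or C57 Het mouse 1, 2 or 5, with adjusted p-values from 0.0512 to 0.0955. Its adaptor Ldb1 fell by 0.57 and 0.46, and among its relatives Lmo2 fell by 0.73 and 0.69 while Lmo3, which passed the filter through Het libraries alone, rose by 0.44 and 0.74. Lmo1 and Isl1, a LIM transcription factor that binds LDB1, did not pass on either background.

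Zfp36l1 (ENSMUSG00000021127) encodes an RNA-binding protein that speeds the decay of messages with AU-rich elements. It was at 13.5, 10.1, 7.92, 10.5 and 25.6 TPM in C57 WT and between 8.29 and 11.7 TPM, median 9.90, in C57 Het mice. In Mixed mice it was at 13.3, 19.5, 12.1, 14.3 and 13.4 TPM in WT and between 10.2 and 28.1 TPM, median 23.9, in Het. The groups overlapped on both backgrounds, and C57 WT mouse 5 again set the upper end of its group. The C57 difference was -0.29 (SE 0.25, adjusted p = 0.368), and that in Mixed was 0.46 (SE 0.25, adjusted p = 0.135). Without Mixed Het mouse 3 the Mixed difference was 0.64 and passed. Its relatives Zfp36 and Zfp36l2 did not pass on either background, with differences of 0.45 and 0.27 for Zfp36 and -0.27 and -0.16 for Zfp36l2.

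Itih5 (ENSMUSG00000025780) encodes a heavy chain of the inter-alpha-trypsin inhibitors, which stabilise hyaluronan in the extracellular matrix. It was at 0.647, 0.616, 0.540, 0.725 and 1.05 TPM in C57 WT and between 0.765 and 1.87 TPM, median 1.06, in C57 Het mice. On the Mixed background its levels were 0.588, 0.841, 0.374, 0.735 and 0.458 TPM in WT and between 0.383 and 5.63 TPM, median 2.38, in Het. The Mixed Het mice were widely spread, with mouse 3 among the WT values and mouse 5 the highest of all 22. Itih5 rose in Mixed by 1.01 (SE 0.25, limma adjusted p = 0.00237), where only Het libraries had brought it past the filter (without a filter it also passed the test), and in C57 the difference was 0.31 (SE 0.25, adjusted p = 0.34). Itih2 rose on both backgrounds, by 0.63 and 1.06, and it too passed the filter through Het libraries alone. Itih1 did not pass on either, and Itih3 and Itih4 failed the filter.

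**Figure D2:**
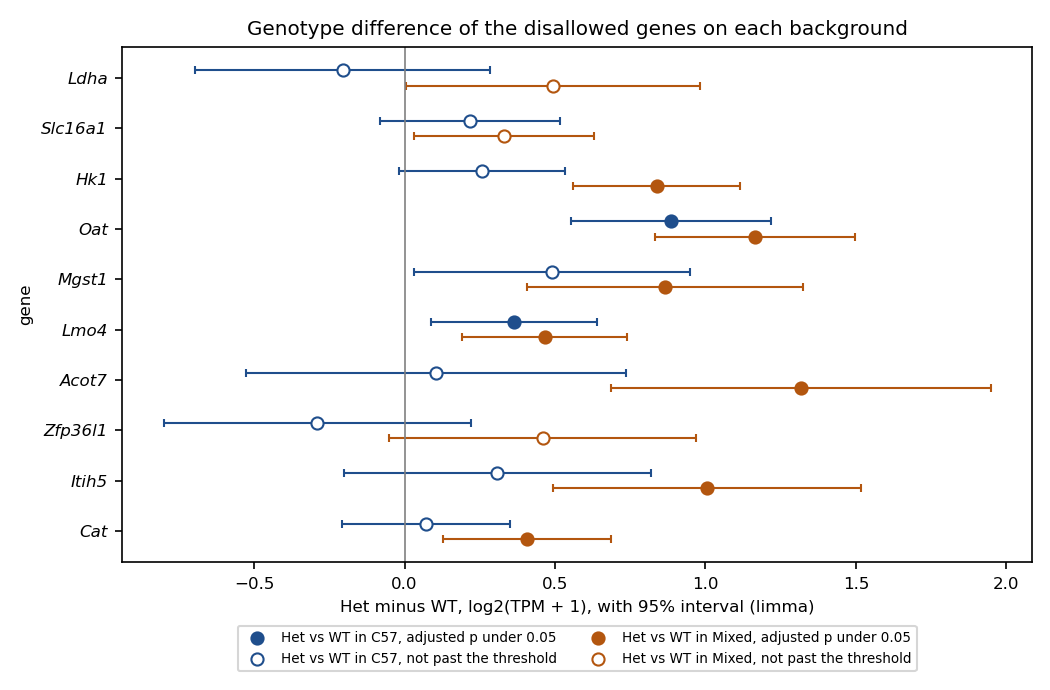
Difference between Het and WT on the log2(TPM + 1) scale (horizontal axis) for each of the 10 genes (vertical axis), in C57 (blue) and Mixed (orange), with limma's 95% interval; filled points passed an adjusted p of 0.05. In C57 Oat and Lmo4 are filled, and in Mixed 7 genes are, from 0.41 for Cat to 1.32 for Acot7.

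Whether the genotype difference itself depended on background was tested by the interaction. The Mixed difference exceeded the C57 difference for each of the 10 genes, from 0.10 for Lmo4 to 1.21 for Acot7, with a median of 0.48 beside 0.021 over all genes. Slc16a1 and Itih5 were kept by the filter through the Mixed Het mice, so their direction carries no weight in that count or median. None of the 10 passed limma's adjusted p of 0.05, where 7.36% of all genes did. At an unadjusted p under 0.05 there were 4 of the 10, beside 4331 of all 16756 genes, so that count is not far above the background. These 4 were Hk1 (0.58, SE 0.19, adjusted p = 0.062), Acot7 (1.21, SE 0.43, adjusted p = 0.0839), Zfp36l1 (0.75, SE 0.35, adjusted p = 0.176) and Ldha (0.70, SE 0.33, adjusted p = 0.189). Hk1 passed with median-of-ratios scaling and with quantile normalization. Hk1 also passed without C57 WT mouse 2 (0.63) or mouse 3 (0.65), and Acot7 without C57 WT mouse 2 (1.41). Without Mixed Het mouse 3, Acot7 (1.39) and Itih5 (0.94) passed. So genes that passed in Mixed and not in C57 are not thereby shown to differ between backgrounds.

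The backgrounds were also compared within each genotype. In WT islets none of the 10 genes passed between Mixed and C57 in limma's test, where 11.3% of all genes did. Only Oat had an unadjusted p under 0.05 (0.35, SE 0.17, adjusted p = 0.182), where 4440 of all 16756 genes did. The median of the 10 was 0.070 beside 0.011 over all genes. In Het islets 5 of the 10 passed, each higher in Mixed, where 20.5% of all genes passed and 13.3% passed as higher. These were Acot7 (1.28, limma adjusted p = 0.00354), Zfp36l1 (0.94, adjusted p = 0.00693), Oat (0.63, adjusted p = 0.00549), Cat (0.41, adjusted p = 0.0262) and Hk1 (0.37, adjusted p = 0.041). The median of the 10 was 0.53 beside 0.021, and it includes Itih5 and Slc16a1, which the filter kept through the Mixed Het mice. Hk1 was lost on leaving out C57 Het mouse 1, 3, 4 or 6 or Mixed Het mouse 1, 4 or 5 (adjusted p from 0.0569 to 0.104), and Cat on leaving out C57 Het mouse 1, 4 or 6 or Mixed Het mouse 1, 2 or 5 (0.0508 to 0.0748). Without Mixed Het mouse 3 the count was 9, among them Slc16a1 and Itih5, which carry no weight in it. These comparisons use the same mice as those between genotypes, so they are not separate evidence.

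A further list held 14 genes described as disallowed or low in beta cells, of which 11 were tested. In C57 0 of these 11 passed in limma's test, and 0 had an unadjusted p under 0.05, while in Mixed 5 rose and none fell, beside 30.7% of all genes that rose. They were Tgm2, a transglutaminase (1.04), Igfbp4, an insulin-like growth factor binding protein (0.78), Fcgrt, the neonatal Fc receptor (0.70), Smad3, a signal transducer of TGF-beta (0.57), and the chemokine Cxcl12 (0.57). Pdgfra and Maf failed the filter. Of 10 regulators linked to these genes, 1 rose and 3 fell in C57, and 0 rose and 4 fell in Mixed. The number that passed is near the share of all genes, 38.0% in C57 and 44.1% in Mixed. Of all 16756 genes, 1940 fell in C57 and 2258 in Mixed. Among the 10, Dnmt3b, a DNA methyltransferase, fell from 5.43 ± 1.56 to 3.45 ± 0.592 TPM in C57 and from 7.58 ± 1.49 to 3.60 ± 0.848 TPM in Mixed, by 0.51 and 0.90. Dnmt3a, which methylates promoters of disallowed genes in maturing beta cells, fell by 0.62 (adjusted p = 0.00268) in Mixed and differed by -0.21 (adjusted p = 0.287) in C57. Hif1a, the oxygen-sensitive transcription factor that drives Ldha in hypoxia, rose by 0.57 in C57 and differed by 0.043 in Mixed (interaction -0.53, adjusted p = 0.0439).

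Cell types other than beta cells use most of the 10 genes, and their markers also moved with genotype. All 5 alpha and all 3 delta cell markers rose in Het islets on both backgrounds. The summed alpha markers did not overlap between genotypes, at 19081 to 57470 TPM in C57 WT against 71434 to 117475 TPM in C57 Het, and at 15850 to 27605 TPM in Mixed WT against 65457 to 107306 TPM in Mixed Het. Acinar markers rose for 8 of 8 tested in C57 and 2 of 8 in Mixed, and ductal markers for 2 of 5 and 5 of 5. Beside these marker counts, 26.4% of all genes rose in C57 and 30.7% in Mixed. Of all 16756 genes, 1940 fell in C57 and 2258 in Mixed. The acinar count in Mixed is therefore near the background. Yet 6 of those 8 had an unadjusted p under 0.05 in limma's test, where 8630 of all 16756 genes did. Their median difference in Mixed was 0.93, beside 0.10 over all genes. Mesenchymal markers rose for 0 of 7 in C57 (1 at an unadjusted p under 0.05 in limma's test, in either direction) and 5 of 7 in Mixed, where their sum was 131 to 204 TPM in WT and 125 to 543 TPM in Het. Immune markers fell for 2 of 7 in C57 and rose for 7 of 7 in Mixed. Schwann cell markers, the glia along islet nerves, rose for 0 of 4 (1 at an unadjusted p under 0.05) and 2 of 4. Endothelial markers fell for 3 of 6 in C57 and 1 of 6 in Mixed, and of the 8 beta cell markers 2 fell and 1 rose in C57 and 5 fell in Mixed. The beta cell list includes Mafa, the gene that carries the allele, so its counts are not a reading of beta cell content alone. The endothelial count in Mixed is near the share of all genes that fell there.

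**Figure D3:**
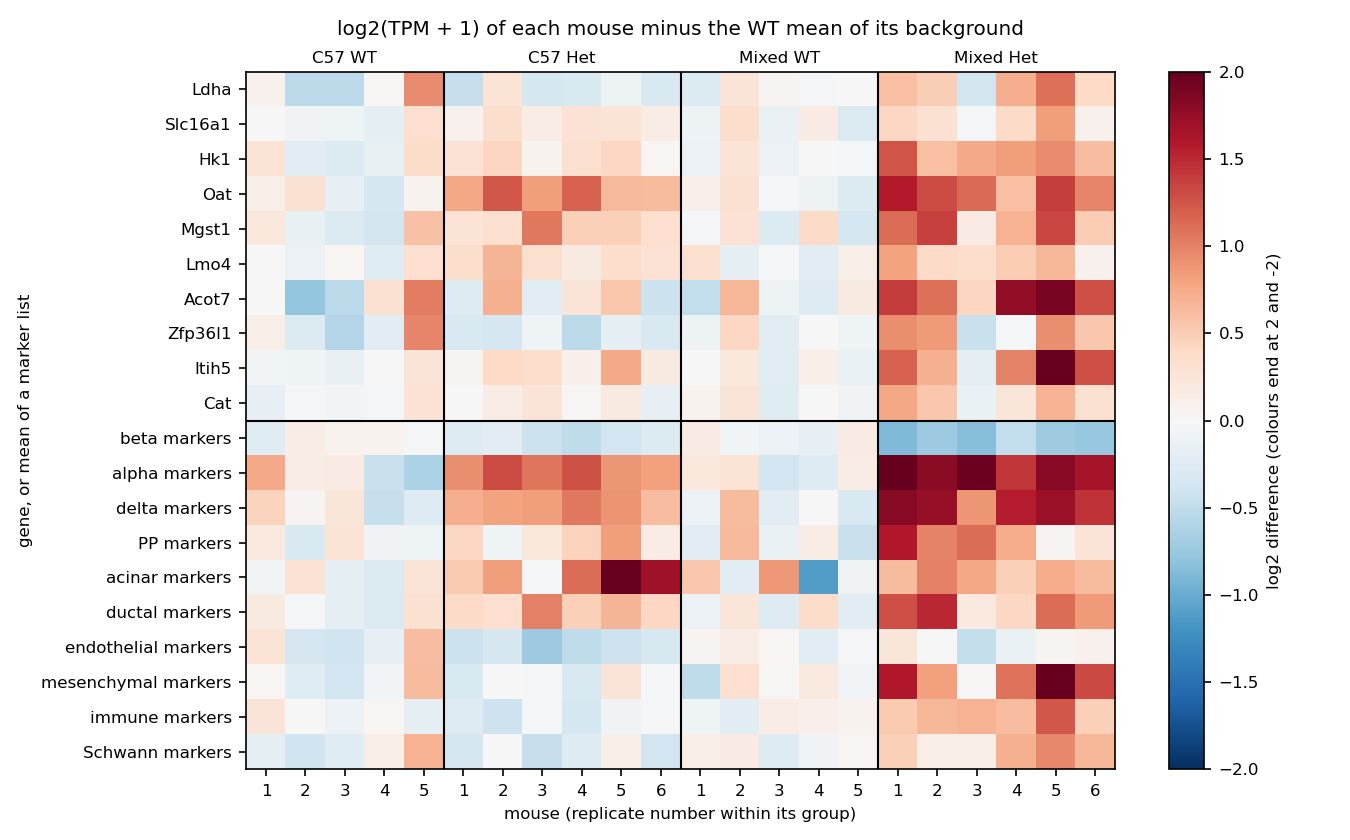
Each of the 10 genes and the mean of each marker list (rows) in each of the 22 mice (columns, by group and replicate number), as log2(TPM + 1) minus the WT mean of that mouse's background; red is higher, blue lower, and colours end at 2 and -2. Mixed Het mouse 3 is pale for Ldha, Mgst1, Zfp36l1, Itih5 and Cat as well as for mesenchymal markers (summed 125 TPM), and C57 WT mouse 5 is red for Ldha, Acot7 and Zfp36l1.

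The genotype differences were therefore also fitted with the mean level of a marker list as a covariate, 1 list at a time, with the Schwann and alpha lists chosen after seeing the data. In Mixed, 7 genes passed with no covariate, 7 with acinar and 10 with endothelial markers. Itih5 was in each of these counts and Slc16a1 in the last, and neither carries weight there. Shares over all genes with a covariate are not given here. Only Hk1 and Oat passed with ductal, with mesenchymal or with immune markers, and Hk1, Oat, Mgst1 and Acot7 passed with Schwann markers. A lost call was not always a smaller difference. With immune markers Acot7 gave 1.45 (adjusted p = 0.0526), Lmo4 0.47 (adjusted p = 0.147) and Cat 0.46 (adjusted p = 0.159), as large as or larger than without a covariate, while Mgst1 gave 0.58 and Itih5 0.57, both smaller. Oat gave 1.04 (adjusted p = 0.00201) and Hk1 gave 0.55 (adjusted p = 0.0187) with mesenchymal markers, whereas Acot7 went from 1.32 to 0.36 (adjusted p = 0.403), Itih5 from 1.01 to 0.037 and Ldha from 0.49 to -0.35 (adjusted p = 0.191). In C57 Oat passed with each of these 6 lists, at 0.69 to 1.01. In C57 Zfp36l1 also passed with ductal markers, as lower (-0.85, adjusted p = 0.00138). With alpha markers 0 of 10 passed limma's test on either background (0 in C57 and 3 in Mixed at an unadjusted p under 0.05), and Oat gave 0.39 (adjusted p = 0.291) in C57 and 0.32 (adjusted p = 0.593) in Mixed. Since alpha marker levels did not overlap between genotypes, that covariate and genotype cannot be told apart. The same holds for immune markers in Mixed, where mean log2(TPM + 1) levels ran up to 3.71 in WT and from 4.04 in Het mice. It also holds for ductal markers in C57, where mean levels did not overlap between genotypes. Calls lost or gained in those fits, that of Zfp36l1 included, cannot separate genotype from marker level. In Mixed, mean mesenchymal levels overlapped through Het mouse 3 alone (3.03), with WT mice up to 3.34 and the other Het mice from 3.83. Mean ductal levels in Mixed overlapped through the same mouse alone (3.10, with WT mice up to 3.27). In Mixed the mesenchymal and ductal fits therefore rest on that mouse to tell genotype from marker level. In Het islets, the 5 genes higher in Mixed than in C57 came to 0 with ductal, mesenchymal, immune or Schwann markers (1 to 4 at an unadjusted p under 0.05), 3 with endothelial, 4 with acinar and 5 with alpha markers. Mean immune marker levels did not overlap between C57 Het (up to 3.77) and Mixed Het mice (from 4.04), so that covariate and background cannot be told apart. With immune markers those 5 differences were 1.41 for Acot7, 0.87 for Zfp36l1, 0.76 for Oat, 0.47 for Cat and 0.45 for Hk1, close to or above those without a covariate. With mesenchymal markers they were 0.34, 0.13, 0.51, 0.023 and 0.093 in the same order. Mean mesenchymal levels of C57 Het (up to 3.36) and Mixed Het mice overlapped through Mixed Het mouse 3 alone (3.03), so that fit too rests on that mouse.

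**Figure D4:**
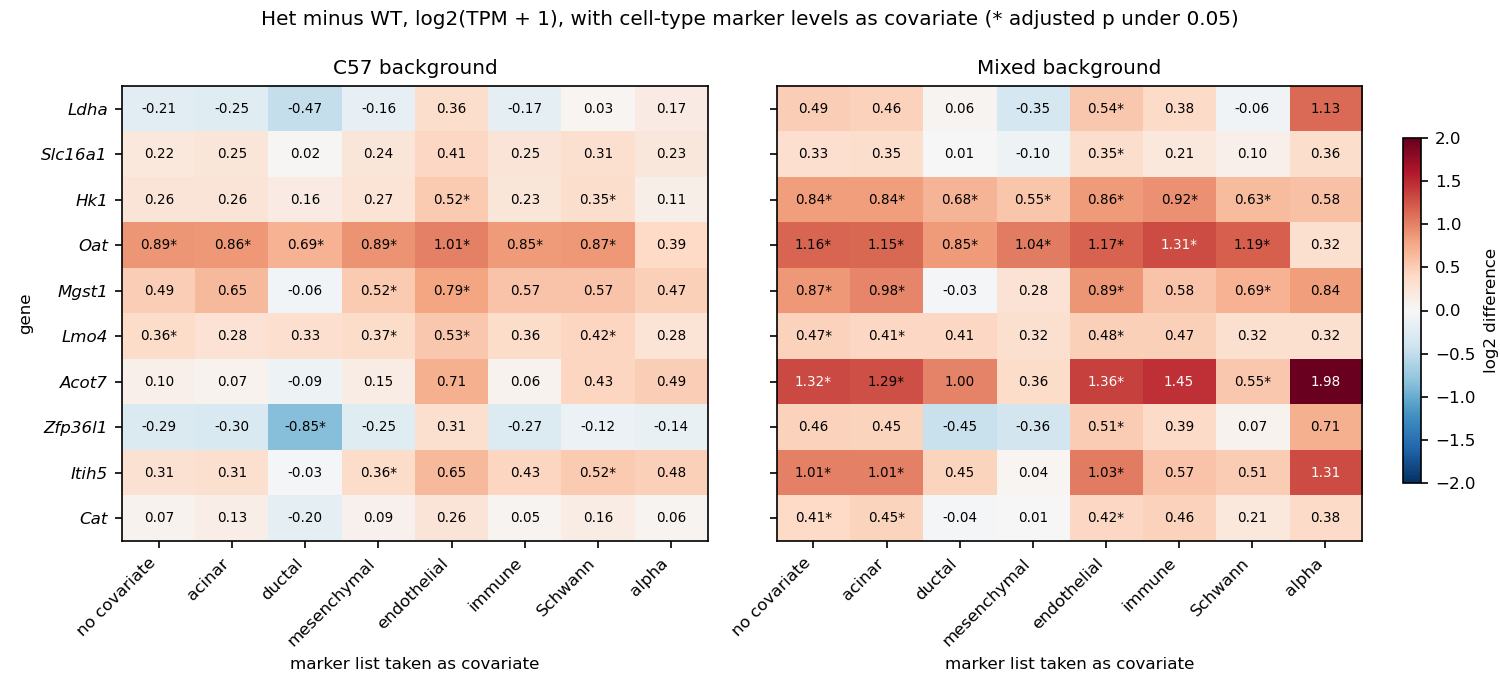
Het minus WT difference on the log2(TPM + 1) scale (cell value and colour) of each gene (rows) without and with a marker list as covariate (columns), in C57 (left) and Mixed (right); an asterisk marks an adjusted p under 0.05. Oat keeps its asterisk in every column but that of the alpha markers, where it is 0.39 in C57 and 0.32 in Mixed.

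Genes whose pattern over the 22 mice was closest to that of a member were found by the smallest root mean square difference of centred log2(TPM + 1). For Ldha, whose own SD was 0.44, these were Anxa2 (0.165), Ndrg2 (0.169) and Cmtm5 (0.178). For Slc16a1, with an SD of 0.29, they were Igsf3 (0.137), Tgfbr2 (0.142) and Frmd8 (0.147). For Acot7, the gene with the largest interaction and an SD of 0.77, they were Gap43 (0.261), Dpysl3 (0.262) and Scn7a (0.299). The measure favours genes of like variance, is a description over mice that share groups, and carries no test.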

How the data were processed

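Poly(A) RNA of islets from 22 mice was sequenced, per the labels' protocols. The authors deposited 1 table of TPM for 57010 Ensembl identifiers, per the file headers, with every column summing to 1000000. The submitters' processing notes name STAR 2.7.10b, MultiQC 1.7 and the mouse build mm39, without saying what each was used for, and the tool that counted genes and the annotation are not given in the sources used here. Columns were matched to mice by their labels, with 0 value columns unused, and a symbol that occurs more than once is represented by its row of highest mean. TPM divides each gene by a library total, so a change in a few abundant transcripts shifts the others. TPM keeps no depth, and the precision of single values is therefore unknown.

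Identifiers with at least 1 TPM in at least 5 libraries were kept (16756). limma 3.58.1 in R 4.3.3 (lmFit, eBayes with trend) fitted the 4 group means to log2(TPM + 1) over all 22 mice, with Benjamini-Hochberg adjustment over all 16756 and a threshold of 0.05. Compared were Het with WT on each background, the difference of those 2 (the interaction) and Mixed against C57 in each genotype. The script was tested on simulated data. The 10 genes and the gene and marker lists were chosen with earlier results of these data known. The genes named are the 10, Mafa, fixed relatives of the 10, other list genes with an adjusted p under 0.05 and a log2 difference of at least 0.5 in a genotype contrast (or a called interaction), and the 3 genes nearest in pattern to Ldha, Slc16a1 and the gene with the largest interaction. Some list genes that meet it are left unnamed, a choice made after their values were seen. The values of 1 listed gene are not reported here. Promoter sequences are RefSeq's on GRCm38.p6, matched by symbol for all 10 genes, and were not joined to coordinates of mm39.

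Alternatives were a pseudocount of 0.1, no filter, median-of-ratios scaling, quantile normalization, the contrast's samples alone, sample weights, marker lists as covariates, an adjusted p under 0.01, a log2 difference of at least 0.5 and leaving out each mouse in turn. The Schwann and alpha covariates were chosen after seeing the data.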

Additional observations from a re-analysis of the deposited data

Results flagged for a closer look

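Within the groups of 5 or 6 mice, 3 values stood far from the rest by Dixon's test, out of 40 gene and group combinations tested, where chance marks about 1 in 20. Hk1 in Mixed WT mouse 2 was at 3.95 TPM, with a gap to its nearest neighbour of 0.731 of the group's range. Mgst1 in C57 Het mouse 3 was at 4.74 TPM, with a gap of 0.747 of the range. Lmo4 in C57 Het mouse 2 was at 5.65 TPM, with a gap of 0.658 of the range, and without that mouse the C57 difference of Lmo4 was 0.30 and did not pass.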

How the results depend on the processing

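No paired analysis was possible because the labels give no replicate numbers shared between groups. The number of the 10 genes that passed in C57 was 2, and it was 1 without a filter, with median-of-ratios scaling, with acinar or immune covariates, at an adjusted p under 0.01 and at a log2 difference of at least 0.5, 4 with sample weights and with mesenchymal, endothelial or Schwann covariates, 3 with quantile normalization (Mgst1 added), and 0 with the alpha covariate. In Mixed it was 7, and it was 6 with median-of-ratios scaling, quantile normalization or the contrast's samples alone (Cat lost in each), 10 with the endothelial covariate, 2 with ductal, mesenchymal or immune, 4 with Schwann and 0 with alpha covariates. The interaction count of 0 became 1 with median-of-ratios scaling and 1 with quantile normalization. The count for Mixed against C57 in WT was 0 and became 1 with the alpha covariate. In Het it was 5, and it was 9 with sample weights, 3 with the endothelial covariate, at an adjusted p under 0.01 and at a log2 difference of at least 0.5, and 0 with ductal, mesenchymal, immune or Schwann covariates. Leaving out 1 mouse at a time gave 1 to 3 in C57, 6 to 10 in Mixed, 0 to 2 for the interaction, 0 to 0 for Mixed against C57 in WT and 3 to 9 in Het. Where Slc16a1 or Itih5 is in a count that involves the Mixed Het mice, it carries no weight there. Shares over all genes under these alternatives are not given here. Differences that changed sign were these. In C57, Ldha turned to 0.053 with sample weights, 0.36 with endothelial, 0.032 with Schwann and 0.17 with alpha covariates, and leaving out 1 mouse gave -0.34 to 0.031, the latter without C57 WT mouse 5. Zfp36l1 turned to 0.031 with sample weights and 0.31 with the endothelial covariate, and Cat to -0.033 with median-of-ratios scaling. With the ductal covariate Mgst1 turned to -0.062, Acot7 to -0.094, Itih5 to -0.035 and Cat to -0.20 in C57, and Mgst1 to -0.031, Zfp36l1 to -0.45 and Cat to -0.038 in Mixed. Acot7 in C57 ran from -0.091 to 0.36 with 1 mouse left out and was below 0 without C57 WT mouse 2, C57 WT mouse 3 or C57 Het mouse 2. With the mesenchymal covariate Ldha turned to -0.35, Slc16a1 to -0.10 and Zfp36l1 to -0.36 in Mixed, and the interactions to -0.19 for Ldha, -0.050 for Lmo4, -0.12 for Zfp36l1 and -0.32 for Itih5. With the Schwann covariate Ldha turned to -0.065 in Mixed, and the interactions to -0.097 for Ldha, -0.10 for Lmo4 and -0.0098 for Itih5. The interaction of Lmo4 turned to -0.054 with the endothelial and that of Oat to -0.076 with the alpha covariate, and Hk1 between backgrounds in WT turned to 0.0065 with sample weights. The cause was not tested. Of the other values, 712 with 1 mouse left out and 333 under the other alternatives kept their direction and their side of the threshold. The rest kept their direction and crossed the threshold. With 1 mouse left out 20 lost their call and 12 gained one, and under the other alternatives 58 lost it and 16 gained one. TPM keeps no depth, so what depth limits is unknown.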
